A study of Homo sapiens with 4 samples.

Results

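Expression of 10 endothelial junction genes was examined in CD31+ cells with and without HAND1 overexpression. The genes were CLDN5, OCLN, TJP1, F11R, JAM2, JAM3, ESAM, CDH5, PECAM1 and MYCT1. They were picked by symbol, with earlier results of these data known. They make up 10 of the 58229 genes of the deposited table, each with a single row. RNA sequencing had been done on CD31+ cells grown from H1 at day 8 of stepwise hematopoietic differentiation. H1 is a widely used line of human embryonic stem cells. Of the 4 libraries, 2 came from H1 without added HAND1 (Control) and 2 from H1 that overexpressed HAND1, a basic helix-loop-helix transcription factor of mesoderm and heart (HAND1_OE). Both groups went through the same differentiation, with activin A and BMP4 first and VEGF and bFGF afterwards. The comparison belongs to a test of what sustained HAND1 does before endothelial progenitors turn into blood progenitors. How HAND1 was expressed and whether the cells were a single clone are not given in the sources used here. The study speaks of independent experiments in general, but neither it nor the labels tie these libraries to separate cultures.

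Endothelial cells are held together by tight junctions and adherens junctions along the same cell border. Claudins and occludin span the membrane and close the gap between neighbours, ZO-1 (TJP1) ties them to actin, and VE-cadherin (CDH5) carries the adherens junction. Immunoglobulin-like proteins, namely the junctional adhesion molecules, ESAM and CD31 (PECAM1), line the same contacts and also handle blood cells that pass through them. When hemogenic endothelium gives rise to blood, cells leave this sheet.

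HAND1 itself checked the labels. It went from 12.1 and 14.3 FPKM without overexpression to 520 and 517 FPKM with it (log2 fold change 5.20, SE 0.152, adjusted p = 0.00145). FPKM, fragments scaled to transcript length and library depth, summed to between 536284 and 606609 per library, and 13989 to 14542 genes reached 1 FPKM. The fragments behind a value are unknown. Low single-exon genes put the depth of the other libraries at 0.983 to 1.19 times that of Control 1. Of 18 endothelial markers all 18 were above 1 FPKM in at least 2 libraries. Their sum was 3971 to 4657 FPKM in Control and 3924 to 4167 FPKM in HAND1_OE. PLVAP alone gave 1790 and 1625 FPKM of it in Control and 1340 and 1415 FPKM in HAND1_OE. Fold changes were positive for 9 markers and negative for 9, so the sum does not show an unchanged endothelial state. Among these markers VWF was called higher (31.3 and 14.6 FPKM in Control, 107 and 95.4 FPKM in HAND1_OE, adjusted p = 0.0338) and SOX18 lower. VWF and PLVAP were named after their values were seen.

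CLDN5 and MYCT1 fell in HAND1_OE cells, and the other junction genes tested did not pass the threshold in either direction. CLDN5, the main claudin of endothelial tight junctions, was 5.13-fold lower by mean FPKM. MYCT1, a small membrane protein enriched in endothelial cells, was 2.52-fold lower. In bulk RNA, fewer cells that express a gene and less of its RNA per cell cannot be told apart, which holds for every difference given here. CDH5, ESAM and PECAM1, which define the endothelial contact, had fold changes between 0.04 and 0.16 on the log2(FPKM + 1) scale. JAM3 had the largest positive fold change of the group, 0.68, with an adjusted p = 0.112. The tests were made in limma over the 14622 genes that reached 1 FPKM in 2 or more libraries, and a gene was called where its adjusted p was under 0.05.

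Of the 10 genes, 9 passed the filter on low values, each with at least 1 FPKM in all 4 libraries, and JAM2 did not. Calls were 2 lower and 0 higher among the 9, against 2.11% of all genes tested called lower and 2.04% called higher. The HAND1_OE libraries lay below both Control libraries for 4 of the 9 genes (CLDN5, MYCT1, OCLN and F11R), against 30.1% of all genes. They lay above both for 1 gene, JAM3, against 16.2%. The share lying apart on the lower side is therefore near what all genes gave. The median fold change of the 9 was 0.04 and that of all tested genes was -0.08.

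**Figure D1:**
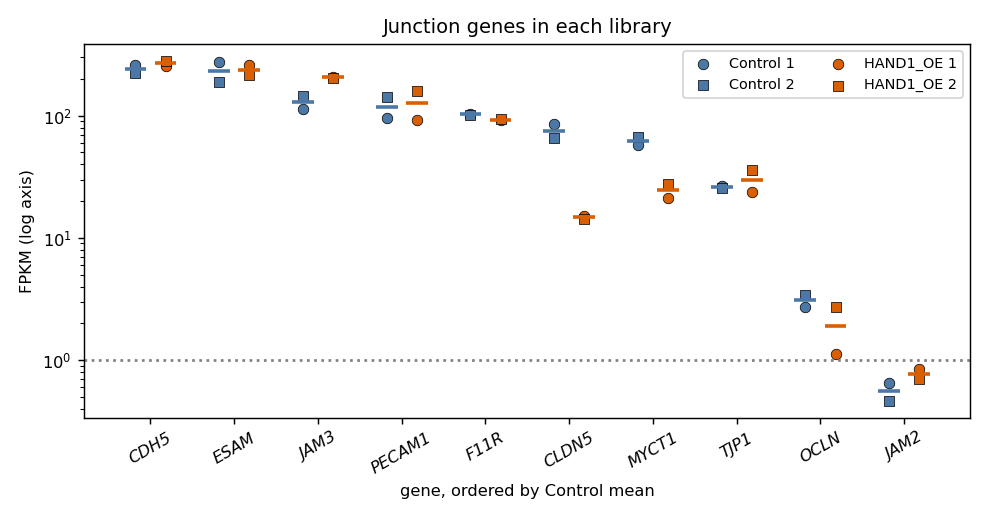
FPKM on a log axis (vertical) of the 10 junction genes in order of their Control mean (horizontal), with blue for Control, orange for HAND1_OE, a circle for library 1, a square for library 2 and a bar for the mean of the group. CLDN5 and MYCT1 drop well below their Control values, while JAM3 lies higher in both HAND1_OE libraries and JAM2 lies under the dotted line at 1 FPKM.

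Since FPKM is scaled to length, levels can be ordered between genes. CDH5 and ESAM were the highest of the 10 in both groups and did not differ from each other beyond their spread. In Control, JAM3, PECAM1 and F11R followed at 95.5 to 145 FPKM with no gap between neighbours, then CLDN5 and MYCT1, whose libraries also overlapped. TJP1, OCLN and JAM2 were each below the gene before them in both libraries. In HAND1_OE the order changed at the lower middle, where CLDN5 went from sixth to eighth place. It lay below MYCT1 and TJP1 there, and MYCT1 and TJP1 overlapped. JAM3 lay apart above PECAM1 in HAND1_OE but not in Control. The 10 genes summed to 1024 and 959 FPKM in the Control pair, against 968 and 1034 FPKM in the HAND1_OE pair. CDH5 and ESAM were the largest parts of this sum, which joins lower CLDN5 and MYCT1 with higher JAM3. It therefore does not show an unchanged set of junction genes.

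CLDN5 (ENSG00000184113.9, GRCh38 chr22:19523024-19527545, minus strand) was at 85.0 and 66.1 FPKM in the Control pair, against 15.2 and 14.3 FPKM in the HAND1_OE pair. Both HAND1_OE values were far below the lower Control value. The group means were 75.5 ± 13.3 and 14.7 ± 0.659 FPKM (SD, n = 2 each). On the log2(FPKM + 1) scale the fold change was -2.27 (SE 0.175, 95% interval -2.71 to -1.84, adjusted p = 0.00700), and 72 of the 14622 genes tested had a lower one. Leaving out each library in turn gave -2.45 to -2.09, with adjusted p between 0.00310 and 0.0130. Testing every gene above 0 in any library, 29860 in all, ended the call (adjusted p = 0.153), as it did for each gene of the table.

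Relative to CDH5 in the same library, CLDN5 stood at 32.6% and 29.8% in Control and at 5.91% and 5.09% in HAND1_OE. Relative to PECAM1, the marker on which the cells were collected, it stood at 89.0% and 46.8% in Control and at 16.5% and 8.90% in HAND1_OE. Measured against either endothelial surface gene, both HAND1_OE values of CLDN5 again lay below both Control values.

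Blood markers moved with CLDN5 and MYCT1. Of 21 blood markers 19 were tested, and all 19 were called lower, with a median fold change of -3.22. Of these, 5 were under 1 FPKM in both HAND1_OE libraries and so passed the filter through Control alone. Their sum was 1101 and 1507 FPKM in the Control pair, against 80.2 and 59.8 FPKM in the HAND1_OE pair. PTPRC, the pan-leukocyte gene CD45, was listed at 0 in Control 2 and HAND1_OE 2 and at 0.0208 and 0.0227 FPKM in the other libraries, and MPO was under 1 FPKM in all. Mesenchymal and mural markers went the other way for 3 of 14 tested, PDGFRB, LUM and POSTN (fold changes 2.03, 1.41 and 1.97), with 0 called lower and a sum of 1023 to 1117 FPKM in Control and 1387 to 1434 FPKM in HAND1_OE. These 3 were named after their values were seen, and LUM lost its call without Control 1 (adjusted p = 0.0739). POSTN, at 0.825 and 0.922 FPKM in Control, passed the filter through HAND1_OE alone, and its fold change was 2.73 with a pseudocount of 0.1. Of the 14 tested, 9 had a positive and 5 a negative fold change. The groups lay apart on the higher side for 8 of the 14, against 16.2% of all genes tested. On the lower side 3 lay apart (COL1A1, COL1A2 and RGS5), against 30.1% of all genes tested. COL1A2 had the lowest fold change of the 14, at -0.82 with an adjusted p = 0.123. No epithelial marker of 9 tested was called, and their list summed to 266 and 277 FPKM in Control and to 287 and 355 FPKM in HAND1_OE. The part of these other cell types in the falls of CLDN5 and MYCT1 was not tested.

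MYCT1 (ENSG00000120279.6, GRCh38 chr6:152697895-152724567, plus strand) was at 57.3 and 66.6 FPKM in the Control pair, against 21.3 and 27.8 FPKM in the HAND1_OE pair. The groups lay apart, with means of 62.0 ± 6.51 and 24.6 ± 4.61 FPKM (SD, n = 2 each). The fold change was -1.31 (SE 0.186, 95% interval -1.77 to -0.85, adjusted p = 0.0258), and 269 of the genes tested had a lower one. Against CDH5, MYCT1 stood at 22% and 29.99% in Control and at 8.29% and 9.93% in HAND1_OE. The call rested on both Control libraries. Without Control 1 the fold change was -1.41 with an adjusted p = 0.0617, and without Control 2 it was -1.20 with an adjusted p = 0.0980. With every gene above 0 tested its adjusted p was 0.178.

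MYCT1 was the only gene of the pair with a promoter entry in the RefSeq table used (3 of the 10 genes had one). The 199 bases before its start in the deposited table are given here. The reason is that HAND1 and the ETS and SOX factors described later bind short DNA words of known form. The stretch is chr6:152697696-152697894 on the plus strand of GRCh38.p14, and capitals mark the ETS core GGAA on either strand.
MYCT1 upstream: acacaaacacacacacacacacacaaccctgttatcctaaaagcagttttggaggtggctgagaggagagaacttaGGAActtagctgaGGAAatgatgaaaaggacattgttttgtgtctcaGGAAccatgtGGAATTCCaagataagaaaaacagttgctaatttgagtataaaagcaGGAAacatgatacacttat
The window held 6 ETS cores, 2 of them adjoining in opposite orientation, and 88.0% of 35116 RefSeq windows of the same length held at least 1. Every window was the first 199 bases of a RefSeq promoter entry. The E-box CANNTG, the word bound by basic helix-loop-helix proteins as a class, matched at 2 places and was present in 54.5% of windows. The matches start at positions 152697824 and 152697850, which is 122 and 96 bases before the RefSeq start. That start lies downstream of the one in the deposited table. The first E-box match shares a base with an ETS core. The GATA core GATA matched 3 times (40.4% of windows) and the SOX core ACAAT once (21.0%), all searched on both strands. The GC content was 38.7%, against a median of 57.3%. In windows of OCLN and TJP1, which were not called, the E-box was found at 1 of 2 OCLN starts and at 1 of 4 TJP1 starts. These matches describe letters and not binding.

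OCLN (ENSG00000197822.10, GRCh38 chr5:69492292-69558104, plus strand), the tight junction protein occludin, was low throughout, at 2.73 and 3.43 FPKM in the Control pair, against 1.12 and 2.70 FPKM in the HAND1_OE pair. HAND1_OE 2 lay just under Control 1, and HAND1_OE 1 was the lowest. The fold change was -0.54 (SE 0.310, 95% interval -1.31 to 0.23, adjusted p = 0.474), and it was -0.14 without HAND1_OE 1. A fall of up to 1.31 and a small rise both lie in that interval, so no direction can be given for occludin at this level of expression.

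TJP1 (ENSG00000104067.16, GRCh38 chr15:29699367-29968865, minus strand), the scaffold ZO-1, was at 26.6 and 25.6 FPKM in the Control pair, against 23.8 and 35.7 FPKM in the HAND1_OE pair. HAND1_OE 2 was the highest of the 4 libraries and HAND1_OE 1 the lowest. The fold change was 0.15 with a 95% interval of -0.39 to 0.70 (adjusted p = 0.807).

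**Figure D2:**
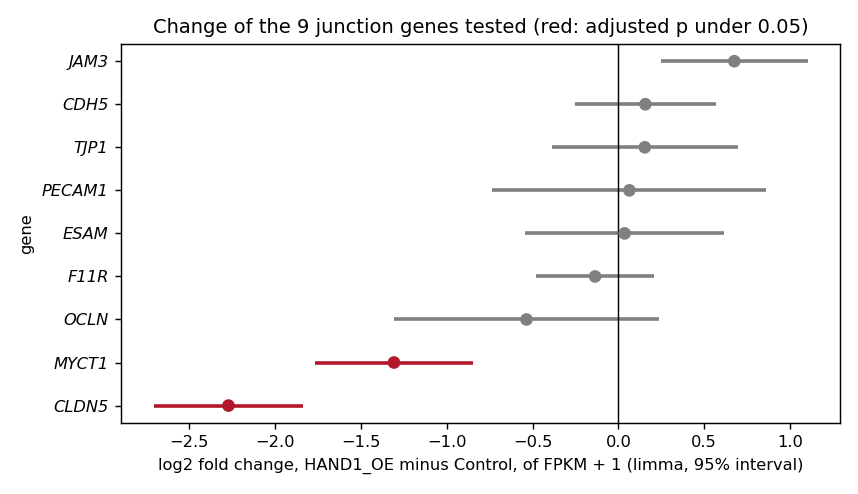
Fold change of HAND1_OE against Control on the log2(FPKM + 1) scale (horizontal) for the 9 junction genes tested (vertical), with points for the limma estimate and lines for its 95% interval. Red marks the called genes CLDN5 and MYCT1, and JAM3 is the only gene whose interval, 0.25 to 1.10, lies above 0.

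JAM3 (ENSG00000166086.12, GRCh38 chr11:134068925-134152001, plus strand), a junctional adhesion molecule of endothelium and platelets, was at 114 and 145 FPKM in the Control pair, against 208 and 204 FPKM in the HAND1_OE pair. Both HAND1_OE libraries were above both Control libraries. The means were 129 ± 21.3 and 206 ± 2.64 FPKM (SD, n = 2 each), a ratio of 1.59. The fold change was 0.68 (SE 0.172, 95% interval 0.25 to 1.10), with an unadjusted p = 0.00884 and an adjusted p = 0.112 in limma, so it was not called. Its end overlaps NCAPD3 on the opposite strand, which was at 6.09 to 8.53 FPKM in all libraries. The library kit and labels do not state that strand was kept, and reads of the shared stretch cannot then be assigned.

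F11R (ENSG00000158769.17, GRCh38 chr1:160995211-161021348, minus strand), which encodes JAM-A, was at 104 and 101 FPKM in the Control pair, against 91.6 and 94.4 FPKM in the HAND1_OE pair. The groups lay apart by a narrow margin, with a fold change of -0.14 (SE 0.138, 95% interval -0.48 to 0.21, adjusted p = 0.716). A second gene model on the same strand, AL591806.3, overlaps F11R and was at 4.07 and 30.5 FPKM in the Control pair, against 10.4 and 48.4 FPKM in the HAND1_OE pair. Reads may have been divided between these models, so the level of F11R is uncertain to that extent.

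JAM2 (ENSG00000154721.14, GRCh38 chr21:25639272-25717562, plus strand), the third junctional adhesion molecule, was at 0.646 and 0.466 FPKM in the Control pair, against 0.849 and 0.700 FPKM in the HAND1_OE pair. At under 1 FPKM in every library it was not tested (with all genes above 0 tested, its fold change was 0.19 with an adjusted p = 0.669). It also overlaps ATP5J on the opposite strand, a gene at 104 to 139 FPKM. With JAM2 this low, JAM3 and F11R made up nearly all of the summed FPKM of the 3 genes. JAM3 took 52.2% and 58.9% of that sum in Control and 69.2% and 68.2% in HAND1_OE. F11R took 47.5% and 41.0% in Control and 30.5% and 31.5% in HAND1_OE, so JAM3 held the larger share in every library, by the widest margin in HAND1_OE.

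ESAM (ENSG00000149564.11, GRCh38 chr11:124752583-124762290, minus strand), an endothelial adhesion molecule of tight junctions, was at 277 and 189 FPKM in the Control pair, against 258 and 214 FPKM in the HAND1_OE pair. Both HAND1_OE values lay between the Control values. The fold change was 0.04 with a 95% interval of -0.54 to 0.61 (adjusted p = 0.966).

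CDH5 (ENSG00000179776.17, GRCh38 chr16:66366622-66404786, plus strand) was at 261 and 222 FPKM in the Control pair, against 257 and 280 FPKM in the HAND1_OE pair. The fold change was 0.16 (95% interval -0.25 to 0.57, adjusted p = 0.727). HAND1_OE 1 lay between the Control values and HAND1_OE 2 above them. PECAM1 (ENSG00000261371.5, GRCh38 chr17:64319415-64413776, minus strand) was at 95.5 and 141 FPKM in the Control pair, against 91.97 and 160 FPKM in the HAND1_OE pair. It encodes the protein on which the cells were collected. Within each group library 2 was higher than library 1 by more than the group means differed, and the fold change of 0.06 had a 95% interval of -0.735 to 0.863 (adjusted p = 0.955).

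The rest of the claudin family showed no call. Of 25 other claudins and occludin-related MARVEL genes 11 were tested, 14 were under 1 FPKM in all libraries and 4 of those were at 0 in all. None of the 11 was called and their median fold change was -0.04. CLDN7 and CLDN10 are named here after their values were seen. CLDN7, a claudin of epithelia, was at 76.0 and 62.1 FPKM in the Control pair, against 45.2 and 36.4 FPKM in the HAND1_OE pair (fold change -0.75, adjusted p = 0.102). CLDN10, which forms ion-selective pores, was at 13.7 and 11.2 FPKM against 7.0 and 6.27 FPKM (fold change -0.82, adjusted p = 0.0745). For both genes the groups lay apart. Of the 11 tested, 4 lay apart on the lower side and 1 on the higher side, against 30.1% and 16.2% of all genes tested. CLDN5 was the first claudin by FPKM in Control and gave 38.6% and 33.7% of the summed claudin FPKM, against 12.7% and 11.97% in HAND1_OE. The other claudins together went from 135 and 130 FPKM to 104 and 105 FPKM, and CLDN7 was then the highest.

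**Figure D3:**
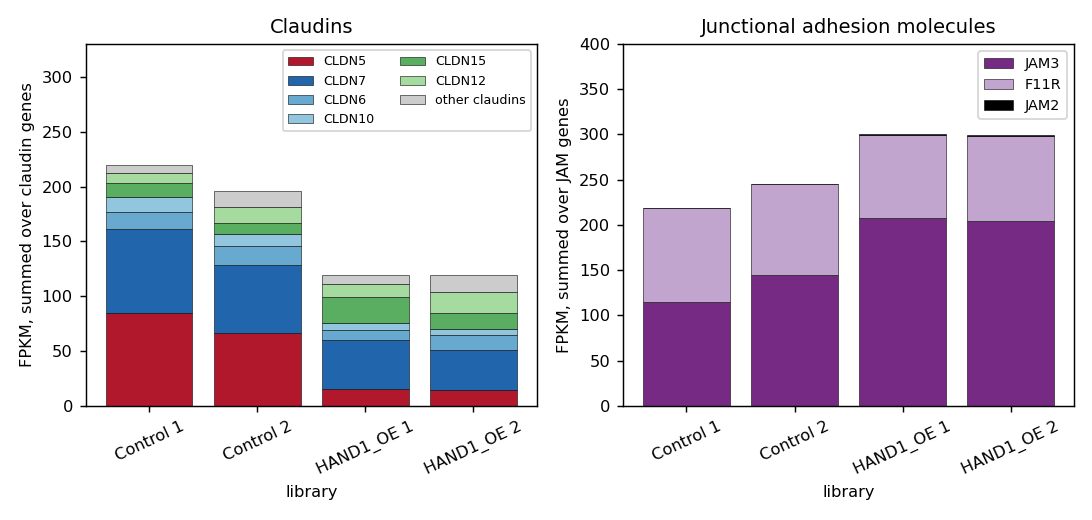
Stacked bars of FPKM (vertical, from 0) in each library (horizontal) for claudin genes on the left and the 3 junctional adhesion molecule genes on the right. The CLDN5 block shrinks from 85.0 and 66.1 FPKM to 15.2 and 14.3 FPKM, and the JAM3 block is largest in the HAND1_OE libraries.

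Genes that work with these junction proteins were read from lists, to be set beside the 2.04% of all tested genes called higher and 2.11% called lower. Among 26 scaffold and polarity genes 22 were tested, with 2 higher, 1 lower and a median of -0.07. CGN, the tight junction adaptor cingulin, was at 11.5 and 8.85 FPKM in the Control pair, against 20.5 and 23.4 FPKM in the HAND1_OE pair (fold change 1.05, adjusted p = 0.0431). AMOTL1, an angiomotin that binds junction scaffolds, rose from 9.01 and 10.1 FPKM to 19.1 and 22 FPKM (fold change 1.03, adjusted p = 0.0338). PRKCZ, an atypical protein kinase C of the polarity complex, fell from 11.4 and 10.95 FPKM to 4.86 and 5.26 FPKM (fold change -1.01, adjusted p = 0.0335). With 1 library left out, fold changes were 0.88 to 1.22 for CGN, 0.93 to 1.13 for AMOTL1 and -1.06 to -0.96 for PRKCZ. No call among these held in every such fit. CGN and PRKCZ each lost it when any 1 of the 4 libraries was left out (adjusted p up to 0.181 and 0.138), and AMOTL1 lost it without Control 1 (0.139), Control 2 (0.104) or HAND1_OE 2 (0.0838).

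On the adherens side, 20 of 25 cadherin, catenin and nectin genes were tested and 0 were called, with a median of 0.06. CTNNB1, the beta-catenin that binds the tail of CDH5, was at 158 and 166 FPKM in the Control pair, against 144 and 167 FPKM in the HAND1_OE pair (fold change -0.06, adjusted p = 0.903). CDH11, a cadherin of mesenchyme, was at 64.5 and 68.5 FPKM in the Control pair, against 115 and 186 FPKM in the HAND1_OE pair (fold change 1.13, adjusted p = 0.0775). Both were named after their values were seen. Of 6 connexin and pannexin genes, the channel proteins of gap junctions and their relatives, 5 were tested and 0 were called (median -0.14). Among 16 further adhesion proteins of the immunoglobulin superfamily 9 were tested. BCAM, a laminin receptor, was the single call and fell from 85.0 and 73.0 FPKM to 34.9 and 36.05 FPKM (fold change -1.13, adjusted p = 0.0220), and the median of the 9 was -0.16. Without Control 1 or Control 2 its adjusted p was 0.0969 and 0.0624.

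Receptors and regulators of the endothelial barrier gave 2 calls in each direction among 22 tested of 24, with a median of -0.05. ANGPT2, the ligand that loosens vessels by opposing TEK signalling, had the largest difference of any listed pathway gene. It rose from 5.92 and 6.63 FPKM to 59.3 and 52.4 FPKM (fold change 2.96, adjusted p = 0.00379), and its call held without each library in turn. ARHGAP29, a partner of RASIP1 in endothelial cells, rose from 38.9 and 44.4 FPKM to 77.4 and 95.2 FPKM (fold change 1.03, adjusted p = 0.0379). ADGRF5, an adhesion G protein-coupled receptor of endothelium, fell from 29.8 and 30.5 FPKM to 11.3 and 15.9 FPKM (fold change -1.11, adjusted p = 0.0443). S1PR1, the sphingosine-1-phosphate receptor that stabilises VE-cadherin contacts, fell from 40.9 and 39.8 FPKM to 19.2 and 22.04 FPKM (fold change -0.94, adjusted p = 0.0341) and was named after its values were seen. The calls of these last 3 did not hold in every fit with 1 library left out. Fold changes there were 0.88 to 1.18 for ARHGAP29, -1.34 to -0.88 for ADGRF5 and -1.03 to -0.84 for S1PR1. ARHGAP29 lost its call without Control 1 (0.146), Control 2 (0.0995) or HAND1_OE 2 (0.0890). ADGRF5 lost it without Control 1 (0.132), Control 2 (0.156) or HAND1_OE 1 (0.0858), and S1PR1 without Control 1 (0.145), Control 2 (0.141) or HAND1_OE 1 (0.0972).

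Among 22 transcription factors linked to endothelial junction genes, all of which were tested, 3 were called lower and 0 higher, with a median of -0.30. SOX18, an endothelial SOXF factor, fell from 127 and 123 FPKM to 51.3 and 48.3 FPKM (fold change -1.31, adjusted p = 0.0121). LMO2, a bridging partner of TAL1 and GATA factors in endothelium and blood, fell from 131 and 161 FPKM to 66.0 and 57.9 FPKM (fold change -1.22, adjusted p = 0.0258). HEY2, a Notch target of arterial endothelium, fell from 36.5 and 31.9 FPKM to 12.7 and 16.3 FPKM (fold change -1.19, adjusted p = 0.0311). ERG, an ETS factor long tied to CLDN5 and CDH5 expression, was at 39.2 and 32.5 FPKM in the Control pair, against 38.5 and 41.3 FPKM in the HAND1_OE pair (fold change 0.16, adjusted p = 0.722). FLI1, another ETS factor, was at 157 and 180 FPKM without HAND1 overexpression and at 57.4 and 91.2 FPKM with it, so that the groups lay apart (fold change -1.21, adjusted p = 0.0649), and it was not called. ERG and FLI1 were named after their values were seen. SOX18 lost its call without Control 1 (adjusted p = 0.0548), LMO2 without Control 2 (0.0973) or HAND1_OE 2 (0.0533), and HEY2 without Control 1 (0.115), Control 2 (0.0822) or HAND1_OE 1 (0.0567).

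**Figure D4:**
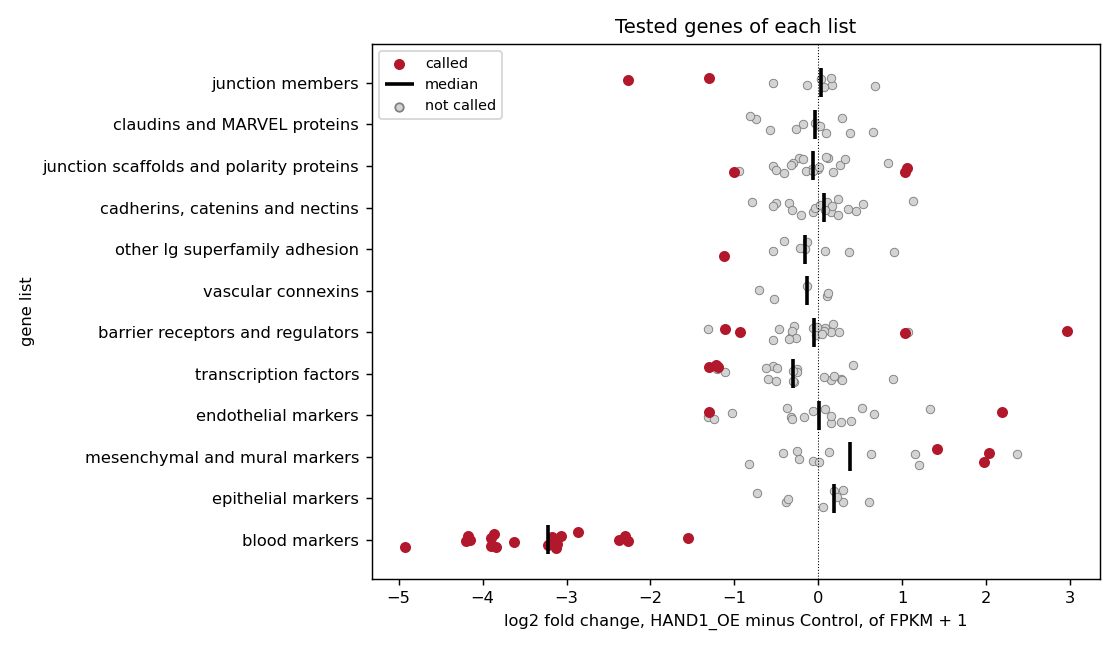
Fold change of HAND1_OE against Control on the log2(FPKM + 1) scale (horizontal) of each tested gene in the junction genes, the pathway lists and the marker lists (vertical), with called genes in red, other genes in grey, black bars for medians and random vertical scatter within a list. The junction genes centre near 0 with CLDN5 and MYCT1 to the left, and the 19 blood markers tested all lie below -1.5.

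The protein-coding genes whose pattern was most like that of CLDN5 were found by the root mean square difference of centred log2(FPKM + 1) values over the 4 libraries. DBNDD2, a dysbindin-domain protein, differed by 0.0528 and was listed at 34.2, 28.9, 5.66 and 5.20 FPKM in the order Control 1, Control 2, HAND1_OE 1 and HAND1_OE 2. GRIK5, a kainate receptor subunit, differed by 0.0896 (17.5, 15.2, 3.12 and 2.75 FPKM). GP9, a platelet glycoprotein on the blood marker list, differed by 0.101 (5.18, 4.62, 0.125 and 0.146 FPKM). GP9 passed the filter through Control alone, and its likeness depends on the pseudocount of 1. With 0.1 its fold change went from -2.38 to -4.40, while that of CLDN5 went from -2.27 to -2.34. As for CLDN5, Control 1 was above Control 2 for all 3, and HAND1_OE 1 was above HAND1_OE 2 for DBNDD2 and GRIK5 but not for GP9. With 4 libraries, this likeness is a description.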

How the data were processed

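RNA was measured in CD31+ H1 derivatives, 2 Control and 2 HAND1_OE libraries, grouped by title. The authors deposited a single table of values per gene and library. Its unit is not stated in it, and the deposited values were taken as FPKM, the unit the study plots. The submitters' processing notes name BWA, Bowtie, RSEM and hg19, without versions. The coordinates of the table are GRCh38, however: of 58365 rows 56554 have those of GENCODE release 29. Rows of pseudoautosomal Y copies (45) and lower rows of a shared ID (91) were left out. SLC25A6, used by most cells, was listed at 0 in all libraries, so its 0 does not show silence. Whether the same holds for other genes listed at 0 was not tested.

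The 14622 genes that reached 1 FPKM in 2 or more libraries were put on a log2(FPKM + 1) scale and fitted with limma 3.58.1 (R 4.3.3) and a mean-variance trend, two-sided. The Benjamini-Hochberg adjustment ran over the whole table of tested genes, with a threshold of 0.05. An exact permutation test of 2 against 2 cannot reach 0.05. As these libraries are not tied to separate cultures, p-values measure only the spread between these libraries, and FPKM allows no counting interval. On simulated data (20 draws, 200 of 14622 genes changed by 2 on the log2 scale) the code recovered 83.8% of them, with 4.69% false calls. The simulated spread came from the fitted model itself with independent errors, so this checks the code and not the data. A change of 2 exceeds that of MYCT1 (-1.31), so the share recovered does not hold for changes of that size. Named were the 10 junction genes, HAND1, up to 3 called genes with the largest change from each pathway list, and the 3 genes most like CLDN5. Genes named otherwise are marked. The junction genes and lists were chosen with earlier results of these data known. Alternatives were another pseudocount (0.1), 2 other filters, 2 scalings, limma without its trend, the replicate number as a block and each library left out. Sequences are from RefSeq (GRCh38.p14).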

Additional observations from a re-analysis of the deposited data

How the results depend on the processing

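Of the 608 genes called, 0 changed sign under any alternative, although 431 of them had a value with the filter of 1 FPKM in every library. For the 2 other filters, the fit without its trend and the replicate block this was fixed in advance. Those settings leave each fold change as it was. In limma 299 genes were called higher and 309 lower over all genes, and 0 and 2 among the junction genes. Testing all 29860 genes above 0 left 0 called higher, 0 lower and 0 junction genes (CLDN5 adjusted p = 0.153, MYCT1 0.178), while 1458 higher and 2352 lower genes, 3 of them junction genes, had an unadjusted p under 0.05. The low genes added also enter the fit of the spread. Their part in the loss was not tested. Leaving out each library gave 134 to 266 genes higher, 137 to 309 lower and 1 to 2 junction genes lower, with a lone library of a group assumed to vary like the other group. Without Control 1 or Control 2 the only junction gene called was CLDN5. The same replicate number marks no stated pairing. With it as a block, 597 genes were called higher and 712 lower. JAM3 became the 1 junction gene called higher (adjusted p = 0.0480), beside CLDN5 (0.00863) and MYCT1 (0.0108), called lower. Over the 14622 genes tested, deviations of Control 1 and HAND1_OE 1 from their group means correlated by 0.383. With 2 libraries per group, those of Control 2 and HAND1_OE 2 mirror them. Under the other alternatives both junction genes stayed called lower, with 271 to 355 genes higher and 233 to 319 lower. ADGRF5 lost its call with a pseudocount of 0.1 (0.0504), median-ratio scaling (0.0576) or no trend (0.0554), and without the trend ARHGAP29 (0.0507) and CGN (0.0529) lost theirs. Scaling moved the median fold change of all genes from -0.08 to -0.01 (quantile) or 0.02 (median ratio).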
